A study of Homo sapiens with 2 samples.

Results

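The genes described here encode splicing factors of the hnRNP, SR and snRNP families, measured in H1299 cells with and without p53. Members were the genes whose symbol begins with HNRNP, SRSF, SNRP, SF3A or SF3B and that had a probe set assigned to that 1 gene symbol, with pseudogenes left out. This gave 51 genes, read by 54 probe sets, of 18417 genes measured: 19 HNRNP, 12 SRSF, 11 SNRP, 3 SF3A and 6 SF3B genes. H1299 is an established human line from a non-small cell lung carcinoma in which p53, a transcription factor activated by DNA damage and other stress, is missing. One group was H1299 cells with p53 and the other was H1299 cells of a negative control, with 1 Affymetrix array of total RNA per group. How p53 was introduced, for how long, and what the negative control received were not stated in the labels, and nothing tells whether the cells were a single clone. The series concerns p53 and 5-hydroxymethylcytosine in gene regulation.

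Splicing removes introns from precursor mRNA on the spliceosome, a machine built on small nuclear RNAs. Each spliceosomal snRNP carries a ring of Sm proteins around its RNA plus proteins of its own, and the SF3A and SF3B complexes belong to the U2 snRNP, which marks the branch point of the intron. SR proteins bind exons through RNA recognition motifs and recruit the machine through a domain rich in arginine and serine, whereas many hnRNP proteins coat nascent RNA and often oppose exon inclusion. Most of these genes are broadly expressed in dividing cells.

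With 1 array per group there is no replicate, no test and no error for any difference, so every value below describes these 2 arrays. Values are log2 intensities, and a difference is the log2 value of the p53 array less the log2 value of the control array. Genes at least 2-fold and at least 1.5-fold apart (1 and 0.585 on the log2 scale) are counted beside the same share over all genes. Both arrays had been brought to nearly the same distribution before deposition, so RNA amounts per cell, and hence a shift shared by all transcripts, cannot be read. Known targets of p53 differed between the arrays: CDKN1A, the gene of the cell cycle inhibitor p21, was at 12.66 against 9.18, and MDM2, the ubiquitin ligase gene that restrains p53, was at 13.59 against 10.87. Of 9 markers listed for an epithelial carcinoma line, KRT8, KRT18 and VIM, the last typical of mesenchymal cells, lay between 12.47 and 13.07 in both arrays. KRT7 was at 7.72 with p53 against 7.80. KRT19 was below the median signal of 7.38, as were EPCAM, CDH1, NKX2-1 and SFTPB, defining genes of epithelial and lung alveolar cells. These 5 were equal in both arrays. The 4 measured haematopoietic markers were also below that median and equal in both arrays. Of the 6 fibroblast and endothelial markers, all equal in both arrays, COL1A1 (8.14) was above it. Among 4 neuronal markers, SYP and RBFOX3 were below it and equal, SNAP25 was at 8.998 with p53 against 8.65, and NEFL was at 8.75 against 7.98.

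The splicing factors were lower with p53 as a body, by small amounts. Of the 51 genes, 43 had a difference below 0, 5 were above 0 and 3 held the same value in both arrays. Over all 18417 genes 37.8% were below 0 and 26.9% above, and 6504 genes were equal in both arrays, which holds their median at 0.00. Equal values were fewer above the 75th percentile of signal, with 294 genes. Over the 5282 genes whose mean of both arrays was at or above the 75th percentile of signal (9.01), where 40 of the 51 members lie, 56.0% were below 0 and 38.4% above, against 34 and 5 of those 40 members. The median difference of the members was -0.34, or 78.8% of the control level, beside 0.00 for all genes and -0.07 for the genes above the 75th percentile. At the 1.5-fold rule 14 members (27.5%) were lower and none was higher, against 10.1% of all genes lower and 9.4% higher. Among genes above the 75th percentile 17.0% were 1.5-fold lower and 16.5% higher, and 9 of the 40 members there (22.5%) were lower. At the 2-fold rule 4 members (7.84%) were lower and none was higher, against 3.7% of all genes lower and 5.22% higher, and 5.85% and 9.28% above the 75th percentile. There 2 of the 40 members (5.0%) were 2-fold lower, so the 2-fold lower share is near that of other genes of like signal. Signal strength and difference showed no rank trend among the members (Spearman rho -0.01 over 51 genes of the same 2 arrays, a description only). The rho does not show that they are unrelated, since the called shares were smaller over the 40 brighter members than over all 51.

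**Figure D1:**
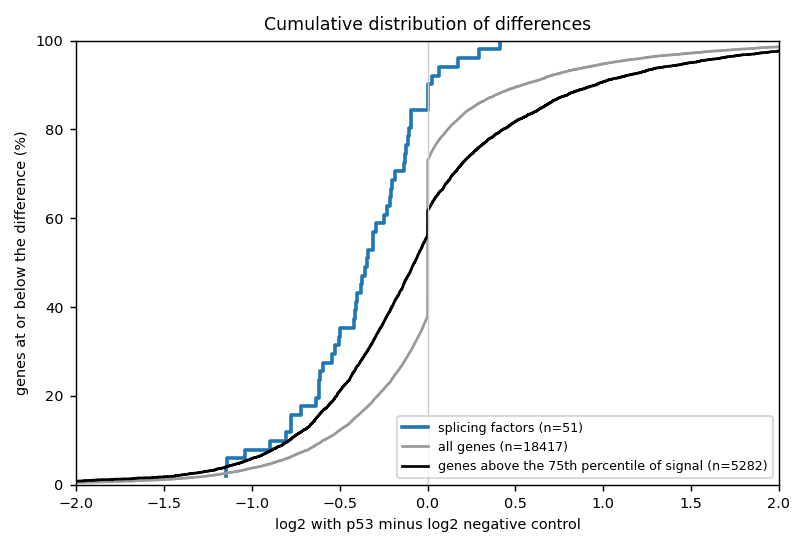
Cumulative share of genes (y axis, percent) at or below each difference (x axis, log2 with p53 minus log2 in the negative control) for the 51 splicing factors, all 18417 genes and the 5282 genes above the 75th percentile of signal. The splicing factors reach 84.3% before 0, against 37.8% and 56.0%, and end at 0.41, while the lower ends of the lines for members and for genes of like signal lie close together.

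As most of these genes were lower together, the sequence before their transcription start was read from RefSeq promoters of build GRCh38.p14, of which 47 of the 51 members had an entry, matched by symbol. HNRNPA1, SF3B3, SRSF2 and SNRPD1 had none. The first entry listed for a symbol was used, and other starts of a gene were not read. In SNRPE and SNRPG the stretch holds the first codons of the gene's own protein. It is therefore not wholly upstream of the coding transcript, though both genes are counted below. The 250 bases before the start are shown for 3 of the 4 genes that were 2-fold lower (HNRNPA0, HNRNPR and SRSF7). Also shown are HNRNPLL and SRSF10, which were 1.5-fold lower and hold an E2F motif, and SF3A1 and SF3A3, which were higher. HNRNPDL, also 1.5-fold lower with an E2F motif, is not shown. Nor are the other higher members: SNRPC with an E2F motif, SRSF5 with an ETS motif and SNRPB2 with no marked motif. The stretches shown are thus examples and do not divide lower from higher members by motif. Capitals mark 3 kinds of motif searched on both strands: the CCAAT box (CCAAT, or ATTGG on the other strand), an ETS motif (CCGGAAGT) and 3 E2F motifs (TTTCCCGC, TTTGGCGC and TTCCCGCC, of which the first and the third can overlap, as they do in HNRNPLL).
HNRNPA0 (chr5:137754364-137754613, minus strand): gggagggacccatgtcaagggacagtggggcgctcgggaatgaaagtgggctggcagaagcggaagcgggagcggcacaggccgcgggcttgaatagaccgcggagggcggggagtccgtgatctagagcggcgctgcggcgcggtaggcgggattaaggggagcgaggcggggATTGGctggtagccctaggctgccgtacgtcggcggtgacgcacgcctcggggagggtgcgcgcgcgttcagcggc
HNRNPR (chr1:23344285-23344534, minus strand): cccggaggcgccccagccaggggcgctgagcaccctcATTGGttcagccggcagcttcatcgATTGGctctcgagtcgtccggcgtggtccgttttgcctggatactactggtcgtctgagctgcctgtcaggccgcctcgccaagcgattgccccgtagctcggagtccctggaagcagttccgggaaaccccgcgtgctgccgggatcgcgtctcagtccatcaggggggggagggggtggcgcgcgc
SRSF7 (chr2:38751495-38751744, minus strand): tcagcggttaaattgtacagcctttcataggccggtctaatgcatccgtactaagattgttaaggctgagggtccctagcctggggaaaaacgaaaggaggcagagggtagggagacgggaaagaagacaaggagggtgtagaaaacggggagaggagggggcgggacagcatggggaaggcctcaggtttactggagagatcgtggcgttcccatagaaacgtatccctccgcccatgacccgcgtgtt
HNRNPLL (chr2:38602929-38603178, minus strand): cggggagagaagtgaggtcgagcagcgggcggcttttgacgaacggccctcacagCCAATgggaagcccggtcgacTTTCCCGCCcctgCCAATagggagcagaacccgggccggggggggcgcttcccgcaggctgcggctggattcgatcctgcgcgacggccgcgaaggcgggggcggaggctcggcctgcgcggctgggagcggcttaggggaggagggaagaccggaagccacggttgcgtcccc
SRSF10 (chr1:23980328-23980577, minus strand): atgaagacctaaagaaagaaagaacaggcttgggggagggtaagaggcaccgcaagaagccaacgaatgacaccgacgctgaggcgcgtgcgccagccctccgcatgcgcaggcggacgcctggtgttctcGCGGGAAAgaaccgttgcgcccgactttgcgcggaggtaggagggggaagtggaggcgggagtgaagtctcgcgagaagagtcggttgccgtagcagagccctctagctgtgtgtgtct
SF3A1 (chr22:30356895-30357144, minus strand): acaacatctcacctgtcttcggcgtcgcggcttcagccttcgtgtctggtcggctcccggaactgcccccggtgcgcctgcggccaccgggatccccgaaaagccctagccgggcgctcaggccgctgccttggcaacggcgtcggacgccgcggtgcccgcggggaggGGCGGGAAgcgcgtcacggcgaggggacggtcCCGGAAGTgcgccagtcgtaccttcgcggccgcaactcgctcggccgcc
SF3A3 (chr1:37990023-37990272, minus strand): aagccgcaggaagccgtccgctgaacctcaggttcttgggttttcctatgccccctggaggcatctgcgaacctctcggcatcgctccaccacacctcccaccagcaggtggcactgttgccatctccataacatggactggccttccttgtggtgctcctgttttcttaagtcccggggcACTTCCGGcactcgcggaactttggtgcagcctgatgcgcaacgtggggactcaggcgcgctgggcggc

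The promoters of the families differed in these letters. A CCAAT box stood in 11 of 18 HNRNP promoters (61.1%), 2 of 11 SRSF, 4 of 10 SNRP and 1 of 8 SF3A and SF3B promoters. The 11 include those of HNRNPCL1 and HNRNPCL2, dim copies of HNRNPC. Over all members it stood in 18 of 47 (38.3%), and in 5 of 13 (38.5%) of those 1.5-fold lower. These totals are near the 34.4% of the 14239 promoters of measured genes and the 35.3% of the 4424 of genes above the 75th percentile of signal. The ETS motif stood in 6 of the 8 SF3A and SF3B promoters, namely SF3A1, SF3A2, SF3A3, SF3B2, SF3B4 and SF3B6. It also stood in 3 of 10 SNRP, 2 of 11 SRSF and 1 of 18 HNRNP promoters, or 12 of 47 in all (25.5%). The share was 5.22% of all promoters and 8.86% of those of genes above the 75th percentile. The 3 SNRP promoters include that of SNRPE, whose stretch holds coding sequence. Any of the 3 E2F motifs stood in 8 of the 47 (17.0%), beside 5.55% and 7.23%. The CHR motif (TTTGAA), known from genes of the G2 and M phases, stood in 1 of 47, that of SRSF6, beside 10.6% and 8.14%, and the E-box CACGTG in 5 of 47 (10.6%), beside 7.86% and 9.95%. Members with the ETS motif had a median difference of -0.21 (12 genes) and those without it -0.35 (35 genes). The ETS median mixes families, since 6 of the 12 are SF3A and SF3B genes, at -0.23 to 0.41. The others were HNRNPD (-0.62), SNRPE (-0.60), SNRPB (-0.55), SRSF4 (-0.50), SNRPA1 (-0.11) and SRSF5 (0.06), most of them below the median without the motif. For the CCAAT box the medians were -0.38 (18 genes) and -0.31 (29 genes), and for the E2F motifs -0.36 (8 genes) and -0.34 (39 genes). For the E-box they were -0.62 (5 genes) and -0.32 (42 genes). These are matches of letters, and binding was not measured.

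Among the hnRNP genes 17 of 19 were below 0 and none was above, with a median of -0.41. HNRNPR, which encodes a protein with several RNA recognition motifs that also accompanies mRNA in the cytoplasm, was at 9.55 with p53 and 10.70 in the control, 2.22-fold lower and the lowest of all 51 members. HNRNPA0, an A/B-type hnRNP that binds AU-rich elements in stress responses, was at 8.21 and 9.35, 2.21-fold lower. These 2 genes ranked 473 and 475 from the lowest of the 18417 genes, so many genes outside these families were further below the control. HNRNPDL, a relative of HNRNPD, was at 9.46 against 10.27, 1.75-fold lower. HNRNPLL, a regulator of alternative splicing in lymphocytes, was at 8.15 against 8.92, 1.71-fold lower.

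HNRNPH3, of the type that binds runs of guanines, was at 10.23 against 10.85 and HNRNPD, also called AUF1 and known for the decay of AU-rich mRNA, at 11.97 against 12.59, both 1.5-fold lower by a small margin (1.54-fold and 1.53-fold). With a lowess trend on signal removed both were short of it, at -0.52 and -0.57. The remaining hnRNP genes did not reach 1.5-fold. HNRNPL, which binds CA-rich RNA, stood just outside at -0.53 and HNRNPAB at -0.50. HNRNPA2B1 (-0.42), HNRNPUL1 (-0.41), the scaffold gene HNRNPU (-0.35), the poly(C)-binding HNRNPK (-0.31) and HNRNPF (-0.21) followed. HNRNPH1 (-0.10) and HNRNPM (-0.09) were nearly level. By type, the 6 A/B-type genes had a median of -0.56 and the 3 F/H-type genes -0.21.

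Retrogene copies and shared probe sets limit a few of these readings. HNRNPCL1 and HNRNPCL2, copies of HNRNPC without introns, were dim at 5.27 and 5.53 and equal in both arrays, and HNRNPA1L2, a copy of HNRNPA1, was at 7.70 against 7.84. HNRNPA1, the best known splicing repressor of the family, was at 7.73 against 7.86 (-0.13) in the probe set assigned to it alone. The 4 probe sets that it shares with its copies lay between 12.88 and 13.01 in both arrays and differed by -0.03 to 0.00. HNRNPC, which binds runs of uridine, was read by 2 shared probe sets at -0.45 and -0.49, HNRNPA3 by 3 at -0.43 to -0.48, HNRNPUL2 by 1 at -0.59 and HNRNPH2 by 1 at -0.01. These last 4 genes, HNRNPC, HNRNPA3, HNRNPUL2 and HNRNPH2, are outside the 51, since their probe sets carry several symbols. A probe set that reads several near-identical copies cannot tell which of them gave the signal.

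**Figure D2:**
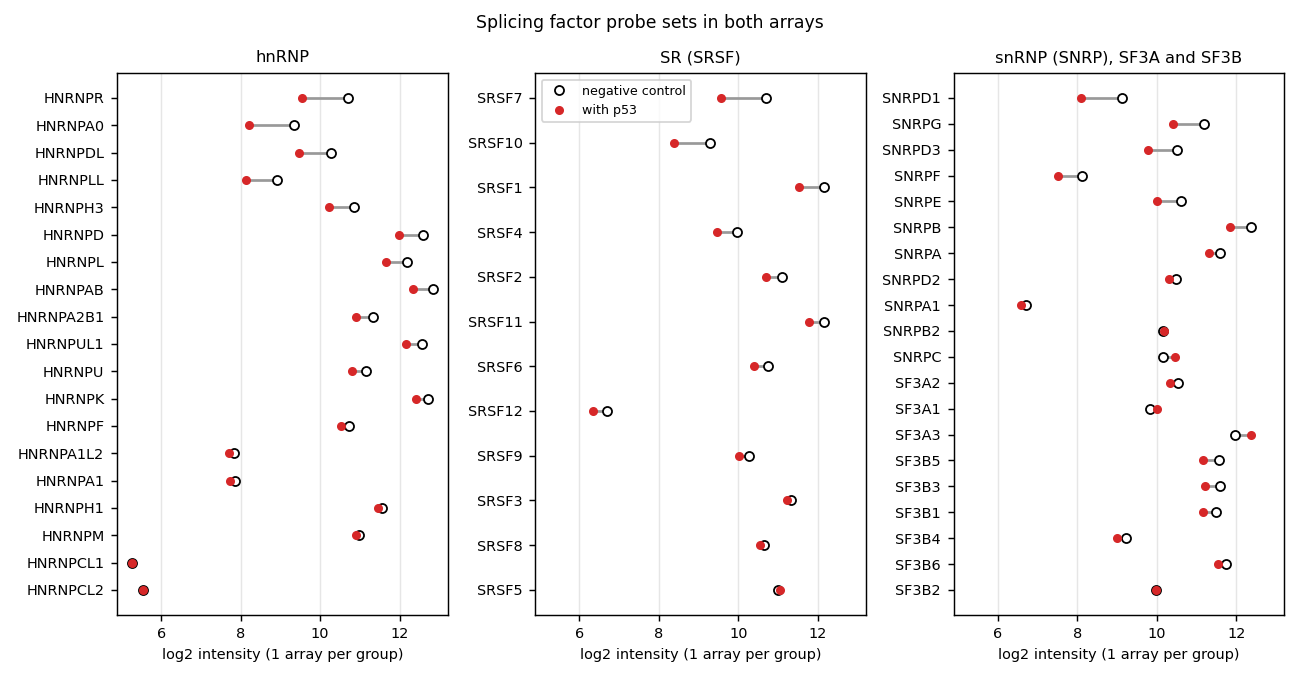
Log2 intensity (x axis) of each of the 51 splicing factors with p53 (filled red) and in the negative control (open), 1 array each, ordered within each family by difference. The red point lies left of the open one in 43 genes, furthest in HNRNPR, HNRNPA0, SRSF7 and SNRPD1, and right of it in SF3A1, SF3A3, SNRPB2, SNRPC and SRSF5. Positions along the axis compare arrays within a gene and not genes with each other.

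Of the 12 SR genes 11 were below 0, with a median of -0.36. SRSF7 (9G8), an SR protein with a zinc knuckle that also couples splicing to mRNA export, was at 9.55 with p53 and 10.69 in the control, 2.21-fold lower. SRSF10, which represses splicing when dephosphorylated in heat shock and mitosis, was 1.87-fold lower, at 8.38 against 9.28 in 1 probe set and 8.37 against 9.27 in its other. SRSF1 (ASF/SF2), the founding member and a proto-oncogene, was at 11.51 against 12.15, 1.55-fold lower, but at -0.57, short of 1.5-fold, with the lowess trend removed. These were the 3 SR genes beyond 1.5-fold.

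The other SR genes graded towards 0 without a gap. SRSF4 stood at -0.50, SRSF2 (SC35, a marker of nuclear speckles) at -0.40, SRSF11 at -0.38, SRSF6 at -0.34, the dim SRSF12 at -0.34 (6.34 against 6.68) and SRSF9 at -0.25. SRSF3, the smallest of the classical members, was at 11.21 against 11.33 (-0.12), and SRSF8, a copy of SRSF2 without introns, at -0.10. SRSF5 was the 1 SR gene above 0, at 11.06 against 10.99 (0.06). SR genes are known to hold exons whose inclusion sends the transcript to decay, and values at the gene level do not separate such transcripts from the coding ones.

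Within the snRNP genes, the Sm ring was lower with p53, while the proteins particular to U1 or U2 lay nearer the control. All 7 ring genes, SNRPB, SNRPD1, SNRPD2, SNRPD3, SNRPE, SNRPF and SNRPG, were below 0, with a median of -0.61 (65.3% of the control level). Of the 7, 5 (71.4%) were 1.5-fold lower, beside 10.1% of all genes and 17.0% of those above the 75th percentile of signal. The ring was set apart as a subgroup after the values were seen. SNRPD1 was at 8.09 with p53 and 9.13 in the control, 2.06-fold lower, but at -0.98 with a lowess trend on signal removed and -0.96 with an offset of 32 added before log2, both short of 2-fold. SNRPG was at 10.41 against 11.19, 1.72-fold lower, while its dimmer probe set gave 6.71 against 7.06 (-0.35), so that its mean over both, -0.56, does not reach 1.5-fold. SNRPD3, a partner of SNRPB in the ring, was at 9.78 against 10.50, 1.64-fold lower.

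SNRPF was at 7.51 against 8.12 and SNRPE at 10.01 against 10.61, 1.53-fold and 1.51-fold lower. Neither call held throughout: SNRPE stood at -0.50 with the lowess trend removed, -0.577 after quantile normalization and -0.581 with an offset of 32, and SNRPF at -0.54 with that offset, all short of 1.5-fold. Both probe sets of SNRPE gave a difference of -0.60. SNRPB stood just outside 1.5-fold at 11.84 against 12.38 (-0.55). SNRPD2 was closest to the control, at 10.31 against 10.49 (-0.19). The ring forms only with all of its subunits. Of the 7 genes, 6 lay between -1.04 and -0.55, with SNRPD2 apart.

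The 4 proteins of U1 or U2 alone had a median of -0.04. SNRPA, the U1 protein that binds a stem loop of the RNA, was at 11.31 against 11.60 (-0.30), and SNRPC, which helps U1 contact the start of the intron, was on the other side at 10.45 against 10.15 (0.29). Of the U2 pair, SNRPA1 was dim and at 6.59 against 6.71, and SNRPB2 was at 10.19 against 10.16. None of these 4 reached 1.5-fold. SNRPN, the Sm protein gene of neurons and of the imprinted region, had no probe set of its own, and the probe set it shares with SNURF was at 5.25 in both arrays.

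**Figure D3:**
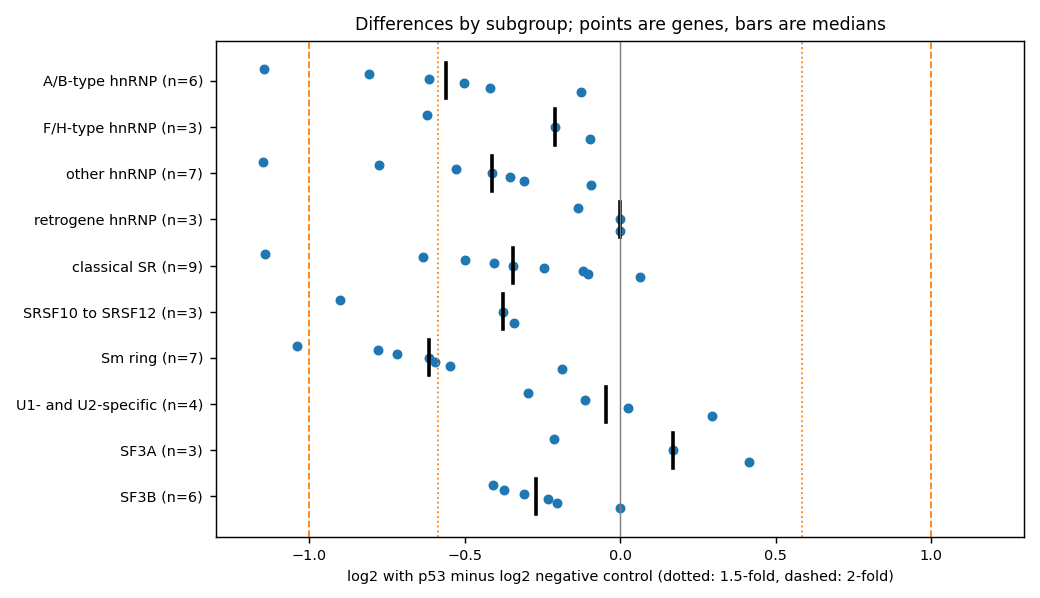
Difference (x axis, log2 with p53 minus log2 in the negative control) of each member by subgroup, with points for genes, black bars for medians, dotted lines at 1.5-fold and dashed lines at 2-fold. The Sm ring (median -0.61) and the A/B-type hnRNP genes (-0.56) lie furthest left, and the 3 SF3A genes (0.17) are the subgroup with a median above 0.

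SF3A and SF3B, the complexes that hold the branch point, were the families least below the control. In SF3A, SF3A3 was at 12.38 with p53 and 11.97 in the control, 1.33-fold higher and the highest of all 51 members. SF3A1, its largest subunit, was at 10.01 against 9.84 (0.17) and SF3A2 at 10.33 against 10.55 (-0.21). Subunits of this small complex lay on both sides of 0.

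In SF3B, 5 of 6 genes were below 0 and none reached 1.5-fold, with a median of -0.27. SF3B1, the subunit that clasps the branch point and is mutated in several cancers, was at 11.18 against 11.49 (-0.31). SF3B5 stood at 11.16 against 11.57 (-0.41), SF3B3 at 11.22 against 11.59 (-0.37), SF3B4 at 8.997 against 9.23 (-0.23) and SF3B6, which touches the branch point adenosine, at 11.54 against 11.74 (-0.20). SF3B2 held the same value, 9.99, in both arrays. Equal values were common in the deposited table, in 35.9% of probe sets, and a lack of difference there says little about the transcript.

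Splicing genes outside these families held both lower and higher members. Over 10 lists with 192 measured genes, 120 were below 0, 43 above and 29 equal, with a median of -0.16. At 2-fold 7 (3.65%) were lower and 12 (6.25%) higher, beside 3.7% and 5.22% of all genes. Above the 75th percentile of signal the shares of genes were 5.85% and 9.28%. Among the 51 members none was 2-fold higher. The lists were chosen with earlier results known, and the 12 include ZMAT3, PCBP4 and RBM38, known targets of p53, so the 2 sets are not alike in choice. At 1.5-fold the balance was towards lower, with 39 (20.3%) lower and 16 (8.33%) higher, beside 10.1% and 9.4% of all genes. Among genes above the 75th percentile of signal, where 137 of the 192 lie, 17.0% were 1.5-fold lower and 16.5% higher. The lower share of the lists is thus near that of genes of like signal, and the higher share is smaller. Of the 12 genes that were 2-fold higher, 6 stood in the list of tissue-biased and other regulators.

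Partners of the members gave these values. Of 17 genes that assemble snRNPs, which load the Sm ring in the cytoplasm and return it to the nucleus, 15 were below 0, with a median of -0.26. SNUPN, the import adaptor of assembled snRNPs, was 2.20-fold lower (8.60 against 9.73), and GEMIN4 of the SMN complex 2.03-fold lower (7.73 against 8.75), though at -0.98 with the lowess trend removed and -0.99 after quantile normalization. TGS1, which adds methyl groups to the snRNA cap before import, went the other way, 3.76-fold higher at 12.05 against 10.14. Among 10 LSM genes, relatives of the Sm genes whose proteins form rings on U6 and in mRNA decay, 7 were below 0, with a median of -0.33, led by LSM8 (-0.76) and LSM6 (-0.74). Of 14 genes of U2 recruitment 11 were below 0, with a median of -0.53. DHX15, a helicase that releases spent complexes, was at -0.79 and ZRSR2, which reads the minor class of introns, was 2.32-fold higher.

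Other core factors had few large differences. In the tri-snRNP list of 18 genes PRPF4 was 2.56-fold lower (9.63 against 10.98) and PRPF18, a factor of the second step, 3.07-fold higher (10.54 against 8.92). Of 11 snRNP proteins whose names begin with SNRNP or that are found in the minor spliceosome, SNRNP40 was 2.08-fold lower, at -0.96 with the lowess trend removed, and SNRNP27 was at 0.90, or 1.004 with that trend removed. In 19 genes of the PRP19 complex and the catalytic steps RBM22 was 2.04-fold higher and PPIL1 was at -0.73, with a list median of -0.04. For 12 kinases and transport factors of SR proteins the median was -0.01. DYRK1A stood at -0.83 and TNPO3, the importin that carries SR proteins into the nucleus, at -0.64.

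The list of mRNA export, exon junction and nonsense-mediated decay genes lay mostly below the control, with 13 of 18 below 0, 2 above and 3 equal and a median of -0.35. At 1.5-fold 7 of them (38.9%) were lower and 2 (11.1%) higher, beside 10.1% and 9.4% of all genes. Above the 75th percentile of signal, where 15 of the 18 lie, the shares of genes were 17.0% and 16.5%. THOC1, of the export complex THO, was 2.38-fold lower (8.76 against 10.01) and MAGOHB, of the exon junction complex, 2.01-fold lower, but at -0.92 with the lowess trend removed and -0.98 after quantile normalization. UPF1, the central helicase of nonsense-mediated decay, was 2.30-fold higher (10.84 against 9.64) and SMG6, its endonuclease, 3.63-fold higher (10.89 against 9.04), while SMG5 (-0.65) and SMG1 (-0.60) of the same pathway, named after their values were seen, were below 0. In 19 SR-like genes the median was -0.26, with TRA2B, a splicing activator close to SR proteins, at 10.83 against 11.76 (-0.93) and BCLAF1 at -0.62.

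The 54 tissue-biased and other regulators had a median of 0.00, with 1 gene (1.85%) 2-fold lower and 6 (11.1%) higher. The shares were 3.7% and 5.22% over all genes, and 5.85% and 9.28% above the 75th percentile of signal, where 31 of the 54 lie. SYNCRIP, also called hnRNP Q and the close relative of HNRNPR, was the lower one, at 9.76 against 10.97 (2.32-fold). The higher ones were ZMAT3 (5.56-fold), PCBP4 (4.29-fold), RBM38 (3.15-fold), MBNL3 (2.27-fold), PTBP3 (2.06-fold) and RBM6 (2.03-fold). ZMAT3, PCBP4 and RBM38 are known targets of p53 that bind RNA, and ZMAT3 stood at 11.51 with p53 against 9.03. PTBP3 and its relative PTBP2 (-0.66, named after its value was seen) were on opposite sides of 0.

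**Figure D4:**
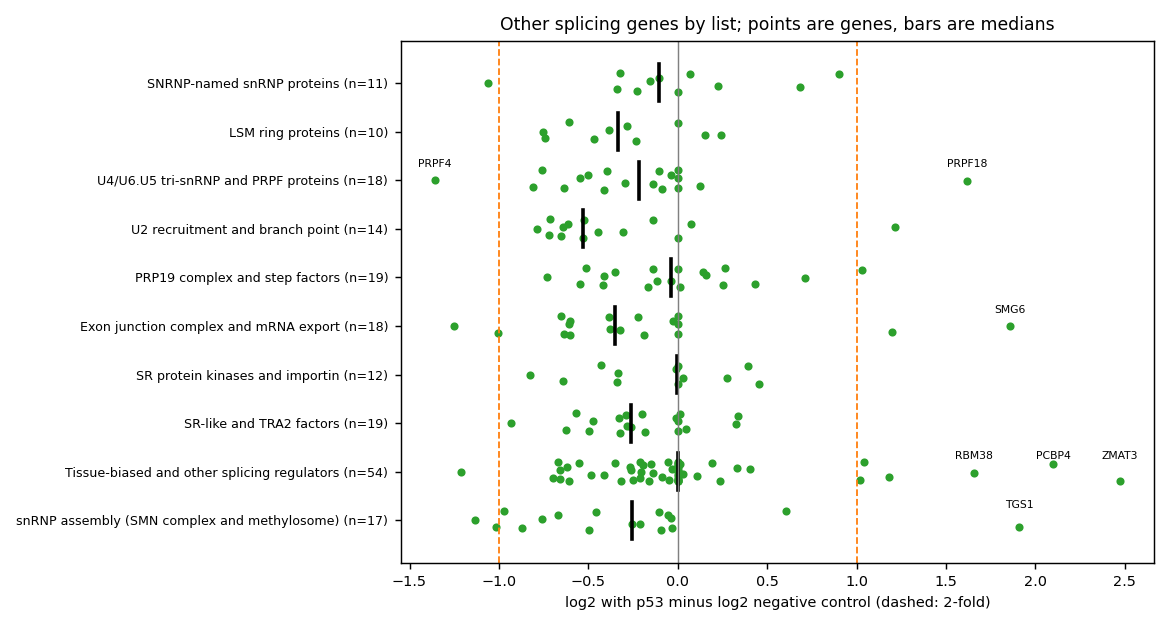
Difference (x axis, log2 with p53 minus log2 in the negative control) of 192 other splicing genes in 10 lists, with points for genes, black bars for list medians and dashed lines at 2-fold. ZMAT3, PCBP4, TGS1, SMG6, RBM38 and PRPF18 lie beyond 1.6 on the right and PRPF4 lies furthest left.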

How the data were processed

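Per the labels, Trizol was used to extract total RNA of H1299 cells, which was then labelled by an Affymetrix protocol for 1 array per group. The authors deposited log2 intensities, 1 value per probe set, made with RMA, per the submitters' processing notes. That the scale is log2 was read from the range of values. The software and the probe set definition were not stated.

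Probe sets were named from GEO's platform annotation: 19460 of 33297 had 1 symbol, 1754 several and 12083 none. Symbols were updated by gene identifier to RefSeq, which matched 19429. Of 2 or more probe sets of a gene, the one with the highest mean was used. No filter on signal was applied. The pseudogenes SNRPD2P2 and HNRNPA3P1 were left out by the rule. With 1 array per group no test was possible, so genes were counted at 2-fold and 1.5-fold and by median, and the number of arrays limits the precision. Named were all members, and in the other lists genes at least 2-fold apart and the 2 largest differences. Members, lists, subgroups and rules were chosen with earlier results of these data known, and the subgroups and motifs after the values were seen. Procedures were tested on simulated data. Alternatives were a minimum mean signal at the median or 75th percentile, centring, lowess (span 0.3), quantile normalization, an offset of 32, other handling of probe sets, and other membership. Python 3.11.15, numpy 2.4.6, pandas 2.3.3, statsmodels 0.14.6 and matplotlib 3.10.9 were used.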

Additional observations from a re-analysis of the deposited data

Results flagged for a closer look

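The region of SNRPN gave a signal in data that the comparisons do not use. Of the probe sets that list SNRPN among several symbols, 2 that each name 10 symbols, most of them SNORD116 small nucleolar RNA copies, read 6.16 in the p53 array and 5.19 in the control array, 0.98 apart. They were picked out because they lay more than 1.5-fold above the control array and belong to no gene of the report. Both hold the same values, so they count as 1 reading, below the median signal of 7.38. The probe set shared by SNRPN and SNURF was equal in both arrays at 5.25.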

How the results depend on the processing

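Over 12 alternatives the median difference of the members ran from -0.37 to -0.27 and the median of each family kept its sign, that of SF3A from 0.17 to 0.27. Not all of these could move a value. Centring could not, since the median of all genes was 0.00. The signal minimums and the handling of probe sets or membership could not move SF3A, whose 3 genes all passed with 1 probe set each. No alternative put a member 1.5-fold higher. The count of members 2-fold lower fell from 4 (7.84%) to 2 (5.0%) over the 40 members above the 75th percentile of signal. This leaves out HNRNPA0 and SNRPD1. The count 1.5-fold lower fell there from 14 (27.5%) to 9 (22.5%), which leaves out HNRNPLL, SNRPF and SRSF10 as well. The shares fell with the counts, so the members of lower signal were called more often. With the lowess trend removed 3 were 2-fold and 10 were 1.5-fold lower, without HNRNPD, HNRNPH3, SRSF1 and SNRPE, and 8 members instead of 5 were above 0, the added 3 being those equal in both arrays. Counting shared probe sets, chosen after seeing the data, gave 55 genes with 15 of them 1.5-fold lower. A median was taken as unmoved within 0.14, the standard deviation, from the median absolute deviation, between the differences of 275 genes with 2 probe sets above the median signal, which holds no variation between cultures. No paired analysis was possible because each group has 1 array.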

Other observations

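Several genes that once carried SFRS names, the former symbol of SR proteins, now have other names and are not among the 51. Of 9 such genes measured, 6 were below 0, 1 was above and 2 were equal. TRA2B was at 10.83 with p53 against 11.76 (-0.93), SREK1, a regulator that interacts with SR proteins, at 8.51 against 9.08 (-0.57), and RSRC1 (-0.32), SUGP2 (-0.29), PNISR (-0.29) and ARL6IP4 (-0.07) followed. SFSWAP and CLASRP were equal in both arrays, and SCAF4, which binds the tail of RNA polymerase II, was at 10.55 against 10.21 (0.33).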
